A study of Mus musculus with 15 samples.

Results

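The mouse mir-297, mir-466, mir-467 and mir-669 hairpins are repeat-derived microRNA precursors, most of which lie side by side in 1 intron of the gene Sfmbt2. They were taken from the deposited table by name alone: every hairpin called mir-297, mir-466, mir-467 or mir-669 followed by a letter, with or without a copy number, was included. This gave 82 of the 1226 hairpins in the table, namely 6 of mir-297, 29 of mir-466, 17 of mir-467 and 30 of mir-669. Many copies share reads, so the hairpins are described family by family. Single hairpins are given as well, among them some copies with equal or nearly equal reads.

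Small RNA was sequenced in C57BL/6 mice carrying a knockout (KO) of miR-302 and in wild type (WT) mice. At E7.5, 2 KO and 2 WT libraries came from whole embryos. At E8.5, 4 KO and 3 WT libraries came from sorted Wnt1-Cre+ neural crest cells, in which Cre is driven by the promoter of Wnt1, a gene of the dorsal neural tube from which the crest leaves. At E9.5, 2 KO and 2 WT libraries came from sorted Sox10+ neural crest cells, Sox10 being a transcription factor of migrating crest. The labels give no design of the miR-302 allele and do not say which of the E7.5 and E9.5 animals carried the Cre. Stage and cell source changed together and cannot be told apart. All E7.5 libraries also share the number part of their label codes, which no later library has. What it stands for is not given, so stage and label code cannot be told apart either. No label says that the libraries of a group came from separate litters, and the p-values below therefore reflect the spread among these libraries alone, part of which may be technical.

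A microRNA is cut from a hairpin in a longer transcript, and its seed, bases 2 to 8 from the 5′ end, does most of the work of choosing target mRNAs. Sfmbt2 encodes a Polycomb group protein. In mouse it is imprinted, is read mainly from the paternal allele, and is known for its activity in the early embryo and the extraembryonic lineages, and its hairpin-bearing intron is found in rodents. The miR-302 cluster and the mir-290 cluster, to which these repeats are compared here, belong to pluripotent cells of the early embryo.

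RefSeq (GRCm38.p6) entries in the sequence table matched 9 of the 82 hairpins. Those 9 lie outside Sfmbt2 and are not among the hairpins tested. The mature sequences of 1 mir-669, 1 mir-467 and 2 mir-466 hairpins are shown, with the seed in capitals, because they carry the GU-rich and CA-rich letters of the matched entries. Their hairpins had few reads over all 15 libraries: 5 for mir-669n, 2 for mir-467h, 7 for mir-466k and 1 for mir-466i. The 3p arms of miR-302b, from the targeted cluster, and of miR-290a follow for comparison of the seed.
miR-669n: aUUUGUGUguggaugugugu
miR-467h: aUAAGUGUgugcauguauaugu
miR-466k: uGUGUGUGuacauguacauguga
miR-466i-3p: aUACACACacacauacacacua
miR-302b-3p: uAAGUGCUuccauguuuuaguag
miR-290a-3p: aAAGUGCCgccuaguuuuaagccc
Of the pairs of adjacent letters, 68.4% were UG or GU in miR-669n, 59.1% in miR-466k and 47.6% in miR-467h, against 22.7% in miR-302b-3p. The share varied widely among the 8 matched mature entries: it was 63.6% in miR-466j, 15.8% in miR-466q and 0% in miR-466i-3p, miR-467f and miR-467g. Among 3p arms of the compared clusters it reached 36.4% in miR-302d-3p and 38.1% in miR-294-3p. The 8 mature entries of these families had 8 different seeds, so none of them shared a seed with another. The 5 letters AAGUG, which open the seed of miR-302b-3p at bases 2 to 6, stood at bases 3 to 7 of miR-467h and in none of the other 7, and 2.36% of the 1738 mouse mature entries in the table hold them anywhere on the strand given. The authors' deposited sheet of seeds lists miR-467-5p beside miR-290-3p and miR-292-3p under the seed AAGUGCC, without saying which mir-467 copy is meant.

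The annotation placed 70 of the 82 hairpins inside Sfmbt2 (GRCm38, chromosome 2, 10370510 to 10595253, plus strand), 10 elsewhere, and gave 2, mir-466a and mir-466c-3, no position. The 70 span 10466663 to 10518279 on the plus strand and overlap no exon. They lie in the intron between exons 10 and 11 of a transcript of 23 exons, from 10461473 to 10523944. The median distance between the starts of neighbouring copies of a family was 2432 bp for mir-466 (281 to 5961), 2450 bp for mir-467 (1909 to 4880) and 2421 bp for mir-669 (266 to 5505). Between the 5 mir-297 copies it was 3402 bp, with a range of 1247 to 36762. The 10 hairpins elsewhere added little: they summed to 0 and 4.38 normalized counts in the E7.5 KO libraries and to 4.03 and 4.16 in the E7.5 WT libraries.

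Depth ran from 1706 to 323389 reads per library. At each stage the KO libraries included the shallowest: the E7.5 KO libraries had 24084 and 52362 reads and the E7.5 WT libraries 133638 and 190416. A normalized count is the number of reads of a hairpin divided by 1 size factor per library, and 1 read was worth 0.147 to 19.3 normalized counts, the last in E8.5 KO replicate 3, where all 82 hairpins together had 1 read. The summed level of miR-302a to miR-302d checked the labels. It was 31.0 and 13.2 in E7.5 KO and 4001 and 14226 in E7.5 WT embryos, 0 to 19.3 in E8.5 KO and 3875 to 6522 in E8.5 WT cells, and 148 and 75.4 in E9.5 KO and 338 and 466.3 in E9.5 WT cells. The KO libraries lay below the WT libraries at every stage, by the least at E9.5.

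The 4 families were abundant in whole E7.5 embryos and scarce in the sorted neural crest cells of both later stages, in KO and WT alike. Before any filter, the 82 hairpins held 2.45% and 3.68% of all reads in the E7.5 KO libraries and 2.50% and 2.20% in the E7.5 WT libraries. They held 0.0508%, 0.0738%, 0.0586% and 0.0615% in the E8.5 KO libraries and 0.0736%, 0.0657% and 0.0884% in the E8.5 WT libraries. In the E9.5 KO libraries they held 0.0454% and 0.0620%, and in the E9.5 WT libraries 0.0612% and 0.0366%. The lowest E7.5 library thus lay far above the highest of the 11 later libraries, and the shares of KO and WT overlapped at every stage. These shares rest on 590 to 4184 reads per library at E7.5 and on 1 to 198 reads later. Exact (Clopper-Pearson) 95% intervals, which cover counting error only, reached up to 0.326% in E8.5 KO replicate 3 and down to 2.13% at E7.5, so counting error alone left the stages apart. In tissue and sorted-cell RNA, fewer cells of a type and less RNA per cell cannot be told apart.

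By family, mir-669 and mir-467 made up most of the level and mir-297 the least. The mir-669 hairpins summed to 839 and 1063 normalized counts in E7.5 KO and 949 and 648.5 in E7.5 WT embryos, and the groups overlapped. The mir-467 hairpins summed to 472 and 883 in E7.5 KO and 573 and 655 in E7.5 WT embryos, with the WT values inside the KO range. The mir-466 hairpins summed to 95.3 and 154.5 in E7.5 KO and 150.2 and 172 in E7.5 WT embryos, again overlapping. With all copies counted the groups stood apart at E7.5 in mir-297 alone, with 0 and 12.1 in KO and 62.4 and 55.3 in WT embryos. With sets of equal copies counted once, mir-466 stood apart too, with 57.2 and 133.7 in KO and 139.3 and 164.0 in WT embryos.

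In the sorted cells each family was low, and all 82 hairpins together had 1 to 198 reads per library. The mir-467 sum, the highest of the 4 on average at E8.5, was 14.2, 9.29, 19.3 and 7.46 in KO (12.6 ± 5.33, SD, n = 4) and 18.4, 13.9 and 22.1 in WT cells (18.1 ± 4.12, SD, n = 3). At E9.5 it was 7.34 and 2.90 in KO and 5.88 and 5.61 in WT cells. The groups overlapped at both stages. The mir-669 sum was 0 to 11.2 in the 4 E8.5 KO and 7.79 to 12.9 in the 3 E8.5 WT libraries, and 10.3 and 40.6 in E9.5 KO and 12.3 and 7.49 in E9.5 WT cells. The value of 40.6 was the highest of any family in a later library and came from a library with 15 reads over all 82 hairpins. The mir-466 sum stayed at 0 to 8.80 in every later library. The mir-297 sum was 0 in 9 of the 11 later libraries.

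**Figure D1:**
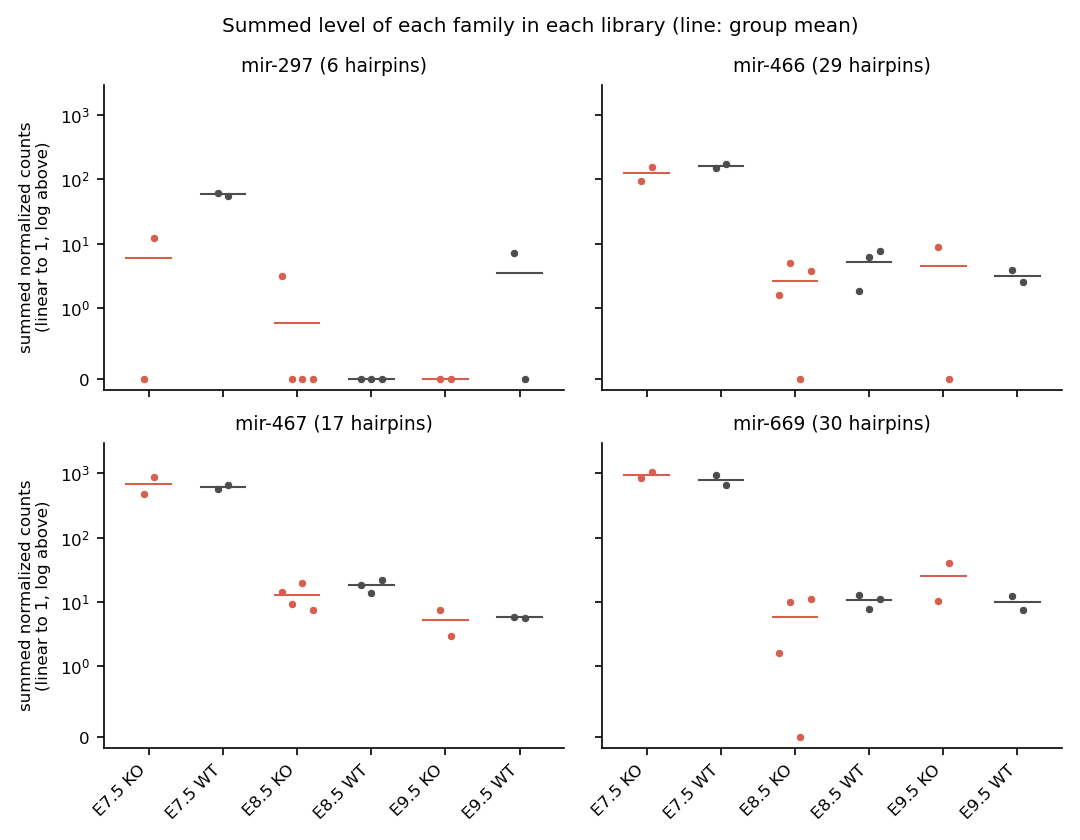
Summed normalized counts of each family (vertical axis, linear to 1 and logarithmic above) in each library (points; KO in red left of WT in grey at each stage), with the group mean as a line. The E7.5 libraries of mir-466, mir-467 and mir-669 sit between 95.3 and 1063, above every later library, and mir-297 is the family in which the E7.5 KO points, at 0 and 12.1, lie below the E7.5 WT points, at 55.3 and 62.4.

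Relative to the E7.5 embryos of the same genotype, the summed level of all 4 families in WT averaged 33.9 ± 6.61 (SD, n = 3) in E8.5 cells against 1633 ± 144 (n = 2) in E7.5 embryos, 48.1-fold lower, and 29.1 and 15.6 in E9.5 cells, 73.1-fold lower. In KO it averaged 21.6 ± 2.18 (n = 4) in E8.5 cells against 1760 ± 500 (n = 2) in E7.5 embryos, 81.3-fold lower, and 26.4 and 43.5 in E9.5 cells, 50.3-fold lower. The folds differed between the families in WT: at E8.5 mir-466 was 30.9-fold, mir-467 33.9-fold and mir-669 75.6-fold lower than at E7.5, and at E9.5 they were 51.1-fold, 106.8-fold and 80.6-fold lower. These folds of sums were not tested. At E8.5 the sums of all 4 families stood apart between the genotypes, while their shares of all reads overlapped. The sums were 20.5, 24.3, 19.3 and 22.4 in KO and 33.1, 27.8 and 40.9 in WT cells. They rest on 1 to 34 reads per KO library and 18 to 159 per WT library, and this difference was not tested.

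The make-up of the 4 families at E7.5 stood apart between the genotypes in mir-297 and mir-466 and overlapped in the other families. The make-up was not tested. mir-297 gave 0% and 0.571% of the summed level in KO and 3.60% and 3.61% in WT embryos. mir-466 gave 6.78% and 7.31% in KO and 8.66% and 11.3% in WT embryos. mir-467 gave 33.6% and 41.8% in KO and 33.0% and 42.8% in WT embryos, and mir-669 gave 59.7% and 50.3% in KO and 54.7% and 42.4% in WT embryos. In the later libraries these shares rest on at most 198 reads and varied widely between libraries of 1 group.

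**Figure D2:**
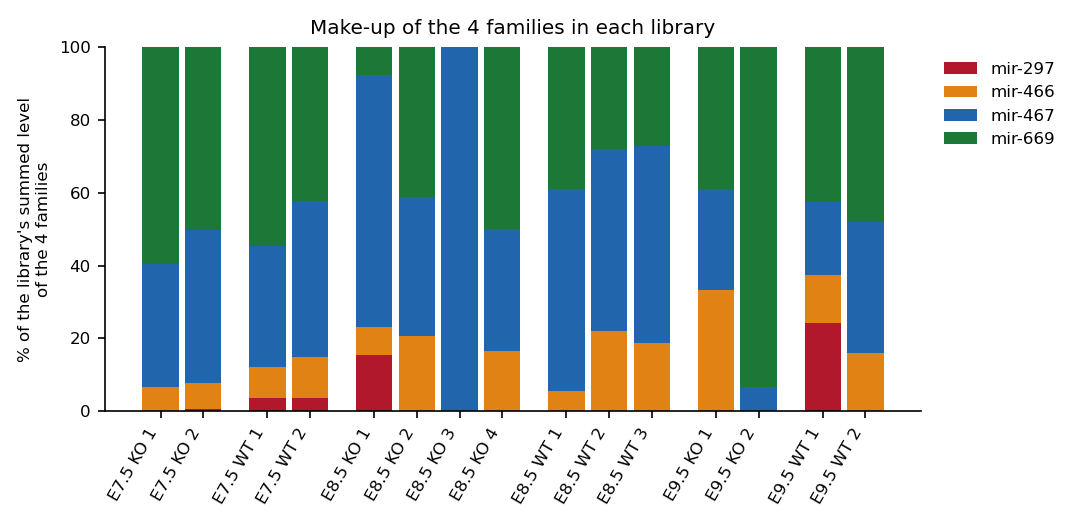
Share of each family (stacked colours, percent) in the summed level of the 4 families in each library, with KO left of WT at each stage. The 2 E7.5 WT bars carry a mir-297 segment of 3.60% and 3.61%, the 2 E7.5 KO bars one of 0% and 0.571%, and the bar of E8.5 KO replicate 3 is mir-467 alone because it rests on 1 read.

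Of the 82 hairpins, 65 had a read in some library and 17 had none. The 17 were 12 mir-669a copies, mir-669g, mir-669j, mir-669k, mir-466j and mir-466q. In E7.5 KO embryos 45 hairpins were above 0 and in E7.5 WT embryos 61. Later, 14 were above 0 in E8.5 KO and 24 in E8.5 WT cells, and 10 in E9.5 KO and 31 in E9.5 WT cells, and at each stage the WT libraries together held more reads than the KO libraries. Reads were seen only at E7.5 for 24 hairpins, only later for 3, and at both for 38. Over all 82 hairpins the median was 7.5 reads in all libraries together, and 43 had under 10, the 17 with none included.

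Numbered copies often gave equal values. In 7 sets, holding 22 hairpins, every copy had the same reads in all 15 libraries. The largest set was mir-466b-1, mir-466b-4, mir-466b-5, mir-466b-6 and mir-466b-7, with 6 reads each. Another was mir-467a-4, mir-467a-5, mir-467a-7 and mir-467a-8, with 44 reads each, and mir-669m-1 and mir-669m-2 had 88 each. The files do not say how a read that fits several copies was counted, so a sum over a family may count it several times. Counting each set once left 50 distinct profiles and changed the E7.5 sum of all 4 families to 1697 ± 506 in KO and 1587 ± 135 in WT embryos (SD, n = 2 each).

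A few hairpins carried most of the level. mir-669c, mir-467e and mir-467c held 76.2% of the level of the 4 families at E7.5, and within families mir-669c held 84.4% of mir-669, mir-467e 55.0% of mir-467, mir-466d 35.5% of mir-466 and mir-297a-4 24.4% of mir-297. mir-669c ranked 16 and 14 among all hairpins in the E7.5 KO libraries and 24 and 26 in the E7.5 WT libraries. It was thus among the most abundant microRNAs of the E7.5 embryos, at a higher rank in the KO libraries. Its own level overlapped between the genotypes, with 715 and 896 normalized counts in KO and 850 and 492 in WT embryos. A rank also depends on other hairpins, such as those of the targeted miR-302 cluster, and what part these had was not tested.

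Along the intron the level was concentrated at the ends. The stretches were drawn after the values were seen, so they are a description without a test. The 33 hairpins between the first and the last mir-467a copy, 9.68 to 36.6 kb from the first hairpin, included 11 with no read, and together held 4.79% and 3.40% of the E7.5 KO and 4.61% and 2.97% of the E7.5 WT level inside Sfmbt2. The 21 hairpins after the last mir-467a copy, at 36.9 to 51.5 kb, held 78.4% and 79.9% in KO and 82.5% and 75.8% in WT embryos, with mir-669c the highest of them. The 16 before the first mir-467a copy held 16.8% and 16.7% in KO and 12.9% and 21.2% in WT embryos, with mir-467c the highest. The pattern overlapped between genotypes in all 3 stretches. The middle stretch also holds sets of copies with equal reads, and what part the counting of shared reads had in its low level was not tested.

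**Figure D3:**
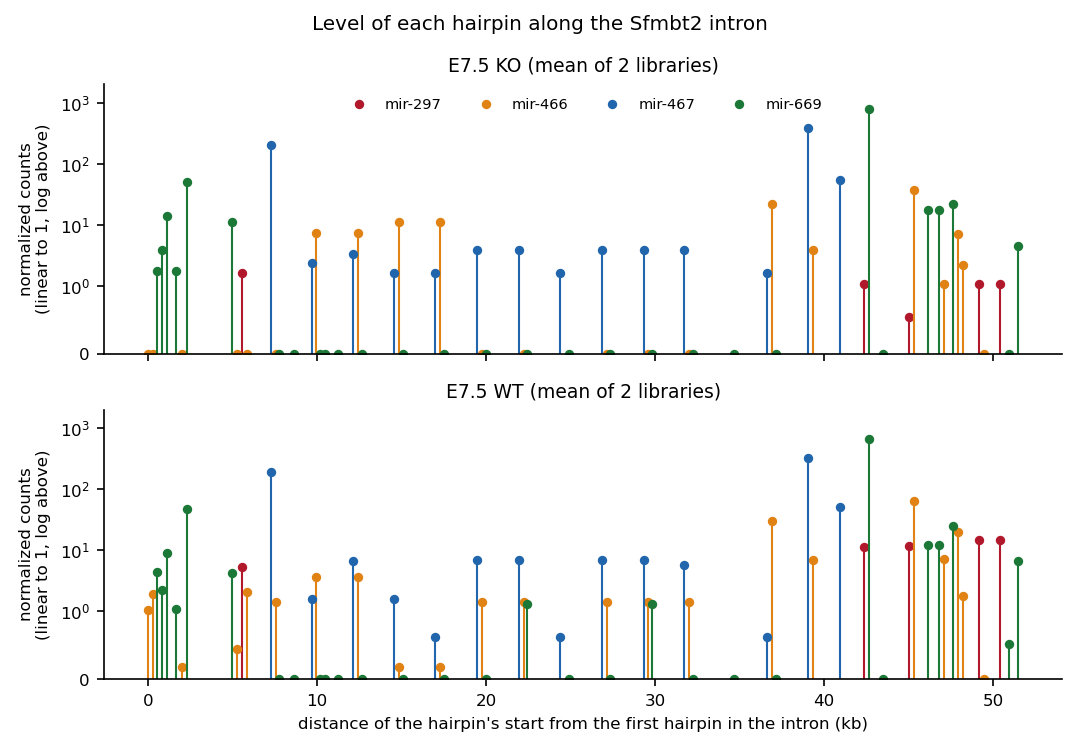
Mean normalized counts at E7.5 (vertical axis, linear to 1 and logarithmic above; KO above, WT below, 2 libraries each) of each of the 70 hairpins, placed by the distance of its start from the first hairpin (horizontal axis, kb) and coloured by family. The high stems, mir-467c and mir-669l before 9.68 kb and mir-467e, mir-467d, mir-466d and mir-669c after 36.6 kb, flank 33 hairpins that hold under 5% of the level.

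A hairpin was tested if 2 or more libraries had at least 10 normalized counts of it. This held for 299 hairpins of the table and for 16 of the 82: mir-297a-3 and a-4, mir-297b and mir-297c, mir-466b-3, mir-466d and mir-466g, mir-467c, mir-467d and mir-467e, and mir-669b, mir-669c, mir-669l, mir-669m-1, mir-669m-2 and mir-669o. The other 66 were not tested. All 16 reached the minimum in at least 2 E7.5 libraries, and 2 of them, mir-467e and mir-669c, also reached it in a later library. A lower level after E7.5 was therefore built into the choice of the 16. The 4 mir-297 hairpins reached it only in the 2 E7.5 WT libraries, so a lower level in E7.5 KO was built into theirs.

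mir-669c, the most abundant hairpin, had 850 and 492 normalized counts in E7.5 WT embryos, 5.51, 7.11 and 8.49 in E8.5 WT cells and 10.7 and 2.18 in E9.5 WT cells. Both E7.5 values lay above all later ones, and the E8.5 and E9.5 values overlapped. With limma on log2(normalized count + 1) it was lower by -6.35 ± 1.13 (SE) in E8.5 than in E7.5 WT (adjusted p = 8.94e-04) and by -6.73 ± 1.24 in E9.5 than in E7.5 WT (adjusted p = 9.78e-04). From pooled reads its level was 82.9-fold lower at E8.5 (57 reads against 2980, exact 95% counting interval 63.8 to 110) and 80.1-fold lower at E9.5 (80 reads, 64.1 to 101).

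The same drop was seen in KO, where no test between stages was made. There mir-669c had 715 and 896 normalized counts in E7.5 embryos, 0, 9.29, 0 and 11.2 in E8.5 cells and 10.3 and 29.0 in E9.5 cells. The E8.5 and E9.5 values again lay far below both E7.5 values. The pooled reads were 1118 at E7.5, 16 at E8.5, 123-fold lower per size factor (75.7 to 217), and 17 at E9.5, 50.7-fold lower (31.5 to 87.3).

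mir-467e, the main copy of its family, had 321 and 331 normalized counts in E7.5 WT embryos, 5.51, 6.10 and 6.18 in E8.5 WT cells and 1.91 and 3.12 in E9.5 WT cells. Replicates lay close together and the stages did not overlap. limma gave -5.56 ± 0.80 in E8.5 against E7.5 WT (adjusted p = 1.38e-04) and -6.56 ± 0.87 in E9.5 against E7.5 WT (adjusted p = 8.1e-05). mir-467e reached the minimum for testing in only 1 later library. It was thus tested because of its E7.5 level, and nothing is read from these p-values. In E9.5 against E8.5 WT the difference was -0.999 ± 0.80 on the log2 scale and did not pass (adjusted p = 0.659). In KO mir-467e had 238 and 529 in E7.5 embryos, 7.89, 6.43, 19.3 and 7.46 in E8.5 cells and 2.93 and 0 in E9.5 cells.

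mir-467c, another abundant hairpin, at the other end of the intron, had 159 and 226 normalized counts in E7.5 WT embryos, 7.35, 2.71 and 6.43 in E8.5 WT cells and 2.20 and 0 in E9.5 WT cells. It stood highest at E7.5 in KO as well, with 162 and 251 in embryos, against 6.31, 0.715, 0 and 0 in E8.5 cells and 2.93 and 0 in E9.5 cells. In WT the limma difference was -4.96 at E8.5 and -6.73 at E9.5 against E7.5 (adjusted p = 0.00244 and 4.22e-04), and pooled reads were 39.6-fold and 132-fold lower. mir-467c reached the minimum for testing in E7.5 libraries alone, so a lower later level was built in and nothing is read from these p-values. mir-466d, the main mir-466 copy, had 55.1 and 72.8 in E7.5 WT embryos, 0, 0.678 and 3.35 in E8.5 WT cells and 2.94 and 0.936 in E9.5 WT cells, 32.2-fold (15 reads) and 28.5-fold (23 reads) lower. mir-669l, the second of its family, had 34.8 and 58.9 in E7.5 WT embryos, 3.68, 0 and 0.257 in E8.5 WT cells and 0.588 and 1.25 in E9.5 WT cells.

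**Figure D4:**
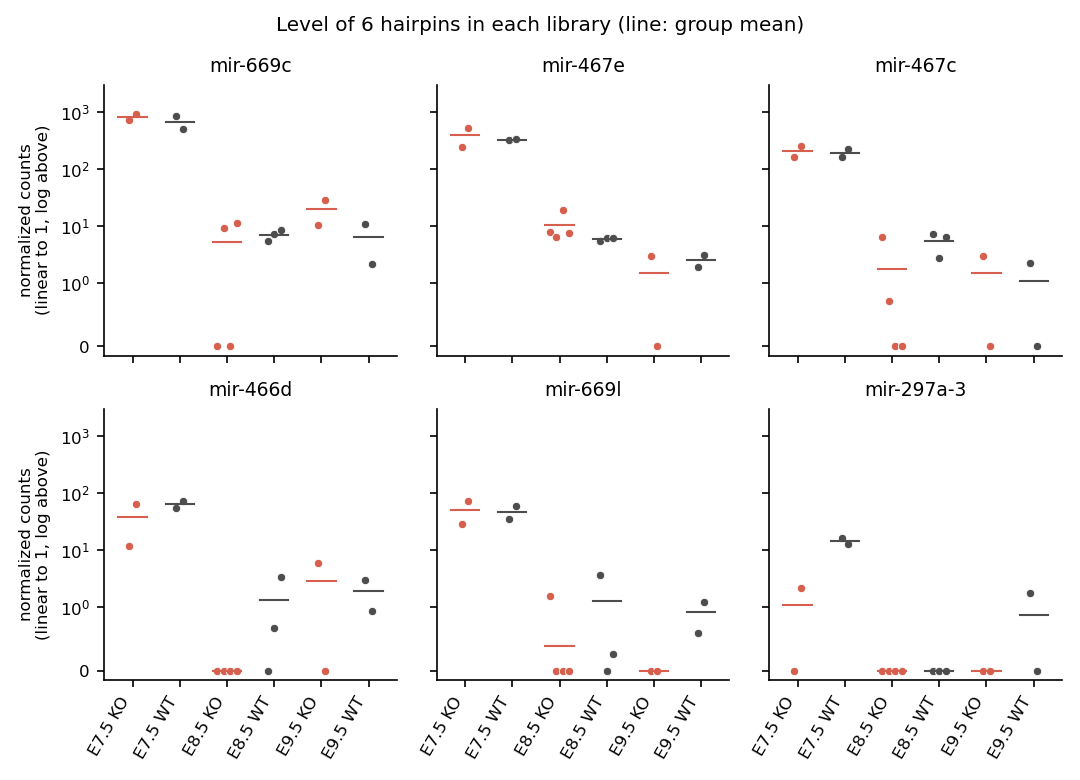
Normalized counts (vertical axis, linear to 1 and logarithmic above) of 6 hairpins in each library, KO in red left of WT in grey at each stage, with group means as lines. mir-669c is at 492 to 896 in the 4 E7.5 libraries and at 0 to 29.0 in the later ones, and mir-297a-3 is the panel whose E7.5 KO points, 0 and 2.19, lie under its E7.5 WT points, 12.8 and 16.6.

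Over the tested hairpins, 16 of 16 passed as lower in E8.5 than in E7.5 WT, by -3.15 to -6.35, and 16 of 16 in E9.5 than in E7.5 WT, by -2.68 to -6.73. Of all 299 hairpins 17.1% passed as lower at E8.5 and 17.7% at E9.5 (1.34% and 3.01% as higher), with medians of -0.48 and -0.65 over the 299 and -3.96 and -4.14 over the 16. The later libraries lay below both E7.5 WT libraries without overlap for 16 of 16 at each stage, where 38.8% of the 299 did at E8.5 and 47.8% at E9.5. As the 16 had been chosen by their E7.5 level, nothing is read from these counts, and the 2 contrasts share the E7.5 WT libraries. With edgeR 14 of the 16 passed at E9.5, without mir-297b and mir-297c, and with DESeq2 11, without the 4 mir-297 hairpins and mir-669b. In 11 of the 16 the lowest E7.5 library, KO or WT, was above the highest later library, against 13.7% of the 299. The choice by E7.5 level bears on this count as well, so nothing is read from it either.

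Between the sorted cells of E9.5 and E8.5 WT no hairpin of the 16 passed with limma, edgeR or DESeq2, and 0 had an unadjusted limma p under 0.05 (1.34% of the 299 passed as higher and 1.67% as lower). The log2 differences ran from -1.78 for mir-467c to 0.73 for the 4 mir-297 hairpins. The groups did not overlap for 2 of the 16, mir-467c and mir-467e, both lower at E9.5, where 24.7% of the 299 were lower and 28.1% higher without overlap. mir-669c, the most abundant, rested on 73 and 7 reads in the E9.5 WT libraries and on 3, 21 and 33 in the E8.5 WT libraries.

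In the KO and WT comparison at E7.5 the abundant hairpins did not differ beyond their spread. mir-669c had 715 and 896 normalized counts in KO and 850 and 492 in WT embryos. The groups overlapped, and the log2 difference was 0.31 ± 1.24 (SE; limma adjusted p = 1). mir-467e had 238 and 529 in KO and 321 and 331 in WT embryos, a difference of 0.12 ± 0.87, and mir-467c had 162 and 251 in KO and 159 and 226 in WT embryos, a difference of 0.09 ± 1.10. The standard errors of these 3, 0.87 to 1.24 on the log2 scale, leave room for differences of either sign.

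The 3 tested mir-466 hairpins were all lower in KO on average, and 0 passed. mir-466d had 11.9 and 63.6 in KO and 55.1 and 72.8 in WT embryos, and the groups overlapped (-1.16 ± 0.98, limma adjusted p = 0.983). mir-466g had 0 and 14.2 in KO and 15.6 and 23.8 in WT embryos, without overlap (-2.38 ± 0.93, adjusted p = 0.343). mir-466b-3 had 21.5 and 23.0 in KO and 34.8 and 26.0 in WT embryos, also without overlap, and a difference of -0.42 ± 0.67. Other mir-466 copies, not tested and named here after their values were seen, were higher in KO without overlap. mir-466c-1, mir-466c-2 and mir-466c-3 each had 14.3 and 7.67 in KO and 0 and 0.366 in WT embryos, and mir-466b-8 and mir-466e each had 9.53 and 5.48 in KO and 2.60 and 4.76 in WT embryos. These rest on 4 to 7 reads per KO library. Among the 6 tested mir-669 hairpins the differences ran from -0.47 to 0.59, and among the 3 of mir-467 from 0.09 to 0.20.

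The tested hairpins that passed were the 4 of mir-297. mir-297a-3 and mir-297a-4 each had 0 and 2.19 normalized counts in E7.5 KO and 16.6 and 12.8 in E7.5 WT embryos, mir-297b had 0 and 1.10 in KO and 11.4 and 11.7 in WT embryos, and mir-297c had 0 and 2.19 in KO and 11.4 and 11.3 in WT embryos. Both KO libraries lay below both WT libraries for each of the 4. The log2 differences were -3.13 ± 0.52 for mir-297a-3 (limma adjusted p = 0.00211), -3.13 ± 0.62 for mir-297a-4 (0.00692), -3.12 ± 0.45 for mir-297b (5.32e-04) and -2.79 ± 0.51 for mir-297c (0.00394). Thus 4 of the 16 tested hairpins passed as lower, where 2.68% of the 299 did, and 0 as higher, where 0% did. Since the 4 could only be tested because they were high in WT, this count supports nothing by itself. The 4 may also share reads and so may not be 4 separate observations. In the 2 WT libraries mir-297a-3 and mir-297a-4 each had 32 and 35 reads, mir-297b 22 and 32, and mir-297c 22 and 31.

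The reads behind these values were few and came at unequal depth. mir-297a-3 had 2 reads in the 2 KO libraries together and 67 in the 2 WT libraries. Per size factor the KO level was 10.4% of the WT level, with an exact 95% counting interval of 1.24% to 39.2%. For mir-297b it was 6.47% (1 read against 54, 0.161% to 37.6%), and for mir-297c 13.2% (2 against 53, 1.56% to 50.1%). In KO replicate 1, where all 6 mir-297 hairpins had no read, a count of 0 allows up to 3 reads, worth 7.15 normalized counts. That bound is below the WT values of the 4, but the filter had required at least 10 there, so nothing is read from it. The 2 mir-297 hairpins that were not tested had 0 and 3.29 normalized counts in KO against 6.24 and 4.39 in WT embryos (mir-297a-2), and 0 and 1.10 in KO against 0 and 2.20 in WT embryos (mir-297a-1, which lies on chromosome 7).

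The call on mir-297 did not hold under other tests. edgeR on the recovered reads gave adjusted p = 0.624 to 0.732 for the 4 and DESeq2 0.793 to 0.866, and a limma fit of the 4 E7.5 libraries alone gave 0.971, so with each of these 0 of the 4 passed (1, 0 and 0 of the 16 had an unadjusted p under 0.05). Without KO replicate 1, mir-297a-3 and mir-297b still passed and mir-297a-4 and mir-297c did not (adjusted p = 0.156 and 0.0621). Without either WT library none of the 4 reached the minimum to be tested. In all, 6 of the 16 were lower in KO without overlap, where 20.4% of the 299 were, and 0 were higher without overlap, where 10.4% were.

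**Figure D5:**
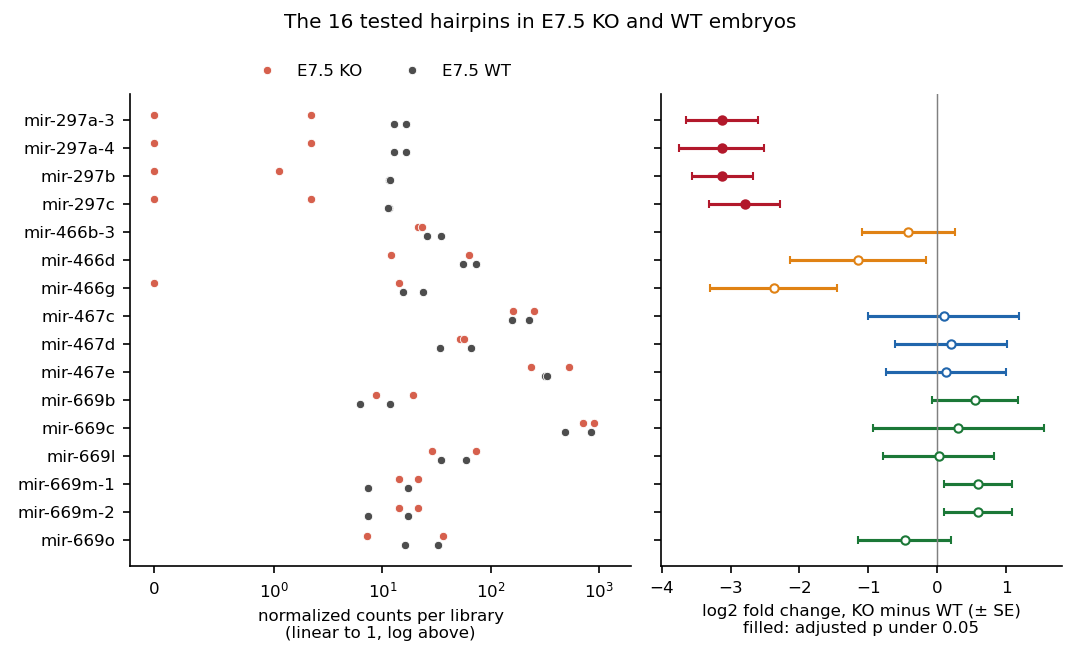
Left, normalized counts (horizontal axis, linear to 1 and logarithmic above) of the 16 tested hairpins in the 2 E7.5 KO (red) and 2 E7.5 WT (grey) libraries; right, log2 fold change of KO over WT with its SE, filled where the limma adjusted p was under 0.05. The 4 mir-297 hairpins stand at -2.79 to -3.13 with filled points, and the mir-467 and mir-669 hairpins lie between -0.47 and 0.59.

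At E8.5 no hairpin of the 16 passed between KO and WT with limma, edgeR or DESeq2, and 1 had an unadjusted limma p under 0.05 (0.669% of the 299 passed as higher and 1.34% as lower). That one was mir-467d, with 0, 1.43, 0 and 0 normalized counts in KO and 5.51, 2.71 and 1.80 in WT cells. Its groups did not overlap, and the difference was -1.71 ± 0.62 (adjusted p = 0.378). mir-467e was higher in KO without overlap, with 6.43 to 19.3 in KO and 5.51 to 6.18 in WT cells (0.58 ± 0.67, adjusted p = 0.756), though its highest KO value was 1 read. One hairpin lower and 1 higher without overlap compare with 6.35% and 5.02% of the 299. mir-297 had no read in the 3 E8.5 WT libraries, and 2 reads in the 4 E8.5 KO libraries, both in replicate 1.

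At E9.5 no hairpin of the 16 passed between KO and WT with limma, edgeR or DESeq2, and 0 had an unadjusted limma p under 0.05 (0.669% of the 299 passed as higher and 0% as lower). The widest difference was that of mir-669c, with 10.3 and 29.0 normalized counts in KO and 10.7 and 2.18 in WT cells, which overlapped (1.59 ± 1.24, adjusted p = 0.471). mir-669l, with 0 and 0 in KO and 0.588 and 1.25 in WT cells, was the hairpin without overlap, against 27.4% of the 299 as lower. The 4 tested mir-297 hairpins had 12 reads each in E9.5 WT replicate 1, worth 1.76 normalized counts, and none in E9.5 WT replicate 2 or in the E9.5 KO libraries. In E9.5 WT replicate 1 mir-297 made up 24.2% of the level of the 4 families, all of it from these 4 equal counts. Whether the 4 share the same reads is not known, so nothing is read from this share. The number part of the label codes also differed between the E9.5 KO and WT libraries, and what it stands for is not given, so genotype and label code cannot be told apart there.

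Whether the KO effect differed between the stages was asked with an F test of the interaction terms. mir-297b (adjusted p = 0.0158) and mir-297a-3 (0.0476) passed among the 16, against 2.34% of the 299. Both could be tested only because they were high in the E7.5 WT libraries, so nothing is read from this count. Their KO effects were -3.12 and -3.13 at E7.5, 0.00 and 0.00 at E8.5, where both groups had no read, and -0.73 and -0.73 at E9.5. With edgeR 0 passed, and 0 passed without E7.5 KO replicate 1. With DESeq2 mir-297b and mir-297a-3 were given no adjusted p, and 0 of the others passed. The other 14 did not pass.

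Lists of other hairpins show what else the embryos and sorted cells held. The mir-290 cluster, the microRNAs of embryonic stem cells and trophoblast, summed to 8271 and 3834 normalized counts in E7.5 KO and 3053 and 6144 in E7.5 WT embryos. It summed to 141 to 405 in E8.5 KO and 224 to 339 in E8.5 WT cells, and to 27.9 and 2.90 in E9.5 KO and 49.7 and 36.2 in E9.5 WT cells. Its level was thus lower in the later cells, as that of the 4 families was, and 7 of its 7 tested members, led by mir-292a and mir-293, passed as lower in each later WT group against E7.5. Of all 299 hairpins 17.1% passed as lower at E8.5 and 17.7% at E9.5. Its members mir-290b and mir-292b were at 0 in all libraries. At E7.5 0 of the 7 passed between KO and WT with limma, and 0 had an unadjusted p under 0.05. Its E9.5 sums lay below its E8.5 sums in both genotypes. Its part in the drop of the 4 families was not tested.

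Other imprinted hairpins, among them mir-335 and Dlk1-Dio3 members such as mir-541, were abundant as a sum at all 3 stages, though mir-136 was at 0 throughout. Their sum was 2139 and 4549 in E7.5 WT embryos, 3239 to 3312 in E8.5 WT cells and 2977 and 2282 in E9.5 WT cells. The E7.5 WT pair spanned every later WT value, and both E9.5 WT values lay below all E8.5 WT values. Of 10 tested, 1 passed as higher and 0 as lower in E8.5 against E7.5 WT, and 1 as higher and 2 as lower in E9.5 against E7.5 WT. In KO the sum was 6140 and 2902 in E7.5 embryos, 2007 to 3055 in E8.5 cells and 1944 and 1627 in E9.5 cells, where both E9.5 values lay below both E7.5 values.

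Sums of endoderm, liver and neural hairpins were higher in both E9.5 KO libraries than in both E9.5 WT libraries. Such a separation was common there: 35.5% of the 299 single hairpins were higher in E9.5 KO without overlap. Of the members of these lists 0 passed, where 0.669% of the 299 passed as higher. The 5 endoderm and liver hairpins, led by mir-192 and mir-122, summed to 763 and 2361 in E9.5 KO and 151.5 and 326 in E9.5 WT cells, and the 6 neural hairpins, led by mir-124-3 and mir-124-1, to 513 and 1018 in E9.5 KO and 102 and 170 in E9.5 WT cells. With limma 2 and 3 members had an unadjusted p under 0.05, as had 51 of the 299. At E7.5 the endoderm and liver sum was 145 and 171 in KO and 218 and 172 in WT embryos, and the neural sum 100.1 and 114 in KO and 137 and 98.4 in WT embryos. The 5 muscle hairpins, of which 1 was tested, summed to 0 to 99.7 across libraries and overlapped at E9.5, with 57.2 and 60.9 in KO and 6.32 and 59.3 in WT cells. The 4 blood hairpins, none of them tested and with mir-451a and mir-486b at 0 throughout, summed to 0 to 8.80. What part these had in the E9.5 values of the 4 families was not tested.

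In the authors' deposited table of Mfuzz clusters, which groups 413 microRNAs, 50 of the 82 hairpins appear. Of these, 46 are in cluster 3, where they are 29.7% of its 155 entries, and 4 in cluster 5, which has 63 entries. The 4, named here after their values were seen, are mir-466o, mir-466p, mir-467a-9 and mir-669d-2. mir-466p had 7 reads in the E7.5 KO and 36 in the E7.5 WT libraries, 21 in the E8.5 WT libraries, and 1 each in the E9.5 KO and E9.5 WT libraries. None of the 4 was tested.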

How the data were processed

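Small RNA libraries were analysed from the authors' deposited table of normalized counts per hairpin, a signal: reads scaled by a single size factor for each library. Per the submitters' processing notes, quality was checked with FastQC 0.11.5 and reads were aligned to mm10 with STAR 2.7.0f. How reads that fit several copies were counted, and with which counting and scaling tools, is not given in the sources used here. Whole reads were recovered for 100% of the 6086 values above 0 (within 0.001). All 2108 entries for mature arms were 0, so arms could not be separated. 3 of 1229 hairpin entries were repeated names. The authors' deposited Mfuzz cluster numbers and seed names are an other unit and were used as labels. 1 further column in the deposited sheets names no sample of the series and was left out.

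Two-sided tests on log2(normalized count + 1) were made in R 4.3.3 with limma 3.58.1, using lmFit and eBayes with a trend, with 6 group means over 15 libraries, 9 residual degrees of freedom, Benjamini-Hochberg adjustment over all 299 tested hairpins and a threshold of 0.05. Fold changes on this scale understate the change of hairpins near 0. Pooled levels are the reads of a group divided by its summed size factors, with exact 95% intervals that cover counting error only. The procedure was tested on simulated data. Positions came from GENCODE M21 (GRCm38), which matched 80 hairpins. edgeR 4.0.16 and DESeq2 1.42.0 on recovered reads, other scalings, filters and pseudocounts, a replicate block and leaving out libraries were alternatives.

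Named were hairpins past the threshold in any comparison, the 3 highest of each family, those with a printed sequence and up to 2 of each list. The members, lists and rules were chosen with earlier results of these data known.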

Additional observations from a re-analysis of the deposited data

Results flagged for a closer look

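In the 4 E8.5 KO libraries, 8 of 21 hairpins and sums had 1 library far from the other 3 by Dixon's test, which chance alone gives in about 1 in 20 groups of continuous measurements. In 6 of the 8 a single library had reads and the other 3 were at 0, so that rate gives no chance level for them. These flags rest on single libraries with few reads. E8.5 KO replicate 1 stood apart for the mir-297 sum (3.15 against 0 in the others), mir-297a-4, mir-466g and mir-669l (1.58 each, against 0) and mir-467c (6.31, against 0 to 0.715). E8.5 KO replicate 2 stood apart for mir-466b-3 (3.57 against 0) and mir-467d (1.43 against 0). E8.5 KO replicate 3 stood apart for mir-467e, at 19.3 against 6.43 to 7.89, and that value is 1 read in the shallowest library, of 1706 reads.

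The test of the KO effect between stages was passed by mir-297b (limma F test, adjusted p = 0.0158) and mir-297a-3 (adjusted p = 0.0476). Both had 0 and under 2.20 normalized counts in the 2 E7.5 KO libraries against at least 11.4 in the 2 E7.5 WT libraries, and could be tested only because of those WT libraries. Neither passed with edgeR, with library-sum scaling, with no filter, with the replicate block or without E7.5 KO replicate 1.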

How the results depend on the processing

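Of the hairpins tested, 16 of 16 stayed lower in E8.5 than in E7.5 WT under edgeR, DESeq2, TMM or library-sum scaling and a pseudocount of 10. With no filter 37 of 65 passed in E8.5 and 37 of 65 in E9.5 against E7.5 WT, and with a minimum of 50 normalized counts 6 of 6 in each. Leaving out 1 library gave 11 to 16 in each, the lowest without E7.5 WT replicate 2, where 11 were tested. KO against WT at E7.5 gave 4 with the settings reported, 0 with edgeR, 0 with DESeq2, 0 with only the groups compared, 0 with a minimum of 50, where no mir-297 hairpin was tested, and 13 of 65 with no filter (3 higher and 10 lower, 2 of the 4 among them). Leaving out 1 library gave 0 to 5: 2 when E7.5 KO replicate 1 was left out and 0 when either E7.5 WT library was. The KO effect between stages, 2 as reported, was 0 with edgeR, DESeq2, library-sum scaling, a minimum of 50, the replicate block and without the 2 E8.5 KO libraries that share a label code, 1 with TMM scaling or equal rows counted once, and 4 with no filter or a pseudocount of 10. The 2 reported, mir-297b and mir-297a-3, had no adjusted p with DESeq2 or with a minimum of 50. With no filter neither of them passed, and the 4 were mir-466m and mir-466c-1, mir-466c-2 and mir-466c-3, copies with equal reads. With a pseudocount of 10 the 4 were mir-297b, mir-297a-3, mir-297a-4 and mir-297c. Leaving out 1 library gave 0 to 5, the highest without E7.5 KO replicate 2. The other comparisons stayed at 0. The causes were not tested.

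The replicate numbers did not pair the libraries: same-numbered libraries correlated by -0.229 at E7.5, 0.0904 to 0.143 at E8.5 and 0.191 at E9.5. With the replicate block 4 hairpins passed between KO and WT at E7.5, 0 at E8.5, 0 at E9.5, and 16 in each later WT group against E7.5. With the E7.5 KO numbers crossed, a setting chosen after seeing the data, the counts were 4, 0, 0 and 16, and 3 for the KO effect between stages.

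Scaling moved the median of the 299 log2 differences: at E8.5 against E7.5 WT by 0.53 with TMM and 0.58 with library sums, at E9.5 against E7.5 WT by 0.46 and 0.54, and in KO against WT by 0.25 with library sums at E7.5, by -0.22 and 0.19 at E8.5 and by -0.56 and -0.35 at E9.5. The level of the later cells rests on 1 to 198 reads per library, which limits any comparison there.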
